A study of Homo sapiens with 15 samples.

Results

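The genes described here are 40 members of the Toll-like receptor and NF-kB pathway, chosen by name with earlier results of these data known. The list holds 8 Toll-like receptors, 2 receptors of TNF, 6 adaptors and kinases, 4 TRAF proteins and the 3 genes of the IKK complex. It also holds the 5 NF-kB subunits, 5 inhibitors and feedback genes of NF-kB, and 7 ligands and other targets. These genes were read by symbol from 2 tables of RNA-seq values. The knockout table listed 33 of the 40, and 30 of them had a log2 CPM (CPM being reads scaled to library size) of -1 or more in at least 3 libraries and were tested among 17039 genes. The resistance table listed all 40, and 33 were tested among 16503 genes. All libraries came from K562, a BCR-ABL1-positive cell line of chronic myeloid leukemia. In the knockout table, 3 libraries of cells carrying an empty vector (EV) were set beside 3 of HSP90α-KO and 3 of HSP90β-KO cells. Per the labels a lentivirus brought CAS9 and the guide into these cells, which were sorted on a fluorescence marker and taken through monoclonal selection. In the resistance table, 3 libraries of cells kept long term in DMSO (parental) were set beside 3 of cells grown out under rising amounts of the HSP90 inhibitor PU-H71 (PUHr), also after monoclonal selection. The labels do not say how many clones stand behind each group, so the effect of a knockout or of resistance and the traits of a clone cannot be told apart.

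Toll-like receptors sense microbial molecules and pass the signal through the adaptor MYD88 and the IRAK kinases to TRAF6. The TNF receptors signal through RIPK1 and TRAF2. Both routes activate the IKK complex, which marks the IκB inhibitors for breakdown and so frees the NF-kB subunits to enter the nucleus, where they switch on cytokine genes and also their own inhibitors, such as NFKBIA and TNFAIP3. HSP90 is the chaperone of many protein kinases, the IKK kinases among them, and mRNA levels do not report on that step.

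Each library held between 19594381 and 26216730 reads on genes. HSP90AA1, the gene of HSP90α, was at 90.4 ± 2.34 CPM in HSP90α-KO against 704 ± 18.7 in EV (SD, n = 3 here and throughout). HSP90AB1, the gene of HSP90β, was at 1913 ± 25.1 CPM in HSP90β-KO against 2806 ± 21.1 in EV. The paper shows the knockouts by western blot, and mRNA levels do not measure loss of the protein. In PUHr HSP90AA1 was at 1568 ± 21.0 CPM against 1712 ± 14.1 in parental, and HSP90AB1 at 3847 ± 98.1 against 4531 ± 42.0. The paper reports more HSP90α protein in PUHr upon renewed treatment with PU-H71. Of 9 markers of K562 and erythroid cells, 8 were at 0.5 CPM or more in every group, and their summed level was 685 to 723 CPM in EV, 484 to 526 CPM in HSP90α-KO, 566 to 587 CPM in HSP90β-KO, 1394 to 1434 CPM in parental and 1311 to 1381 CPM in PUHr. ALAS2, HBG2 and HBZ were changed downwards in HSP90α-KO (log2 fold changes of -1.56, -1.22 and -1.04) and ALAS2 upwards in PUHr (1.01). All 4 dendritic cell markers were under 0.5 CPM in parental and PUHr and were not analysed in the knockout table. Of 7 monocyte and macrophage markers 3 were listed in the knockout table, and their summed level was 168 to 170 CPM in EV, 180 to 184 CPM in HSP90α-KO and 126 to 129 CPM in HSP90β-KO. These 3 did not move together in HSP90α-KO, where FCGR1A (1.26) and LYZ (0.58) were higher and ITGAM (-0.27) lower, while all 3 were lower in HSP90β-KO. CD14, CSF1R and CD163 were among 5 of the 7 that lay under 0.5 CPM in parental and PUHr, and the sum was 54.4 to 56.2 CPM in parental and 41.8 to 44.8 CPM in PUHr. For B cells the sums lay between 2.13 and 7.18 CPM and for T cells between 3.66 and 18.9 CPM over the 5 groups, the T cell sum being lowest in HSP90α-KO (3.66 to 4.56) and highest in HSP90β-KO (17.0 to 18.9). What these levels contribute to the values below was not tested. In bulk RNA, fewer cells that express a gene and less of its RNA per cell cannot be told apart.

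The promoters of 4 members are printed because NF-kB binding motifs lie in them and because their genes went different ways in the comparisons below. Capitals mark matches to GGGNNNTTCC or GGGNNNTCCC on either strand, and each sequence runs 5′ to 3′ on the gene's strand, taken from RefSeq on GRCh38.p14. NFKBIA covers chr14:35404750-35404999 on the minus strand, NFKBIZ chr3:101827740-101827989 on the plus strand, TNFAIP3 chr6:137867009-137867213 on the plus strand and TRAF3 chr14:102777199-102777448 on the plus strand. The TNFAIP3 sequence leaves out the last 45 bases before the RefSeq start site, since GENCODE release 44 starts the gene there.
NFKBIA: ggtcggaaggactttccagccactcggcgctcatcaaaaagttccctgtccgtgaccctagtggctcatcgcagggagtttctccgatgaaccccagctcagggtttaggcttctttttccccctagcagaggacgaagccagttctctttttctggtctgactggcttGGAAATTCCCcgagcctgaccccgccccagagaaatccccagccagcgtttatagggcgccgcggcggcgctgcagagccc
NFKBIZ: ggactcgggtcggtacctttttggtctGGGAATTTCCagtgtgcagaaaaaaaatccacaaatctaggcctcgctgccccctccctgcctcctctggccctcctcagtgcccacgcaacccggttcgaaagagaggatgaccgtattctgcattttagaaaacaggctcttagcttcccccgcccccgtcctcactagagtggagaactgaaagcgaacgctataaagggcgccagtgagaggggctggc
TNFAIP3: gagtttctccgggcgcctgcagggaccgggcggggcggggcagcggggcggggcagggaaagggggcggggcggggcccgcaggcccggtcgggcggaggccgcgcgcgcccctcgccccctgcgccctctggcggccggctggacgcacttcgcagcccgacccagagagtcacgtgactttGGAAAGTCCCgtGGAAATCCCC
TRAF3: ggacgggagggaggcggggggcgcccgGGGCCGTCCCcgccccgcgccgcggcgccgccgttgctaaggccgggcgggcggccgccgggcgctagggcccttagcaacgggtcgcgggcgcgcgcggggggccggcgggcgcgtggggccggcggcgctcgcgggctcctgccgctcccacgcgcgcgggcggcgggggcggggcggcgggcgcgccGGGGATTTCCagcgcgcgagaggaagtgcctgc

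Counted to the first base of the match, NFKBIA held its match 81 bases before the start site, NFKBIZ 223 bases before, TNFAIP3 67 and 55 bases before, and TRAF3 223 and 33 bases before. RefSeq gave a promoter for 32 of the 40 members, and in the 250 bases before the start 10 of them held a match. These were TLR2, TLR5, IRAK1, TRAF3, NFKB1, REL, NFKBIA, NFKBIZ, TNFAIP3 and LTB. The share was 31.2% of the 32, beside 11.1% of 27305 RefSeq promoters searched in the same way (3030 with a match). The 2 matches of REL overlapped each other, 47 and 46 bases before the start. A match describes letters in this window and no binding was measured.

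A gene was called higher or lower where limma gave a Benjamini-Hochberg adjusted p under 0.05 over all genes tested, and changed where its log2 fold change was also above 1 or below -1. In HSP90α-KO against EV, 14 of the 30 tested members were higher, 7 were lower and 9 did not pass. That is 46.7% higher beside 27.5% of all genes, and 23.3% lower beside 26.6% of all genes. In HSP90β-KO against EV, 18 were higher (60.0%, beside 17.2% of all genes), 1 was lower (3.33%, beside 17.2%) and 11 did not pass. In PUHr against parental, 8 of 33 were higher (24.2%, beside 25.6%), 15 were lower (45.5%, beside 25.8%) and 10 did not pass. The median log2 fold change of the members was 0.02 in HSP90α-KO, 0.23 in HSP90β-KO and -0.15 in PUHr, where all tested genes had medians of -0.01, 0.00 and 0.00.

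**Figure D1:**
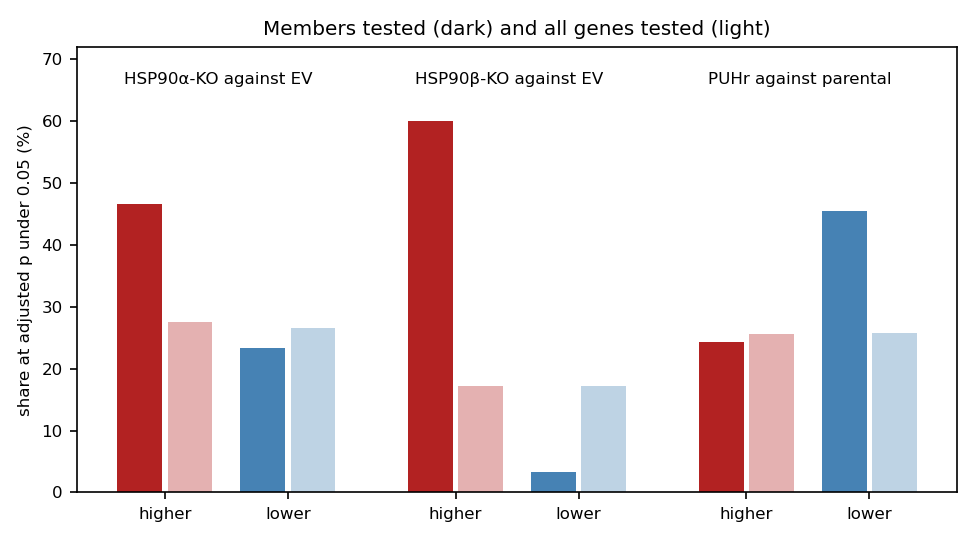
Share of genes (%, vertical axis) with an adjusted p under 0.05 that were higher (red) or lower (blue) in each comparison, for the pathway members tested (dark bars, 30 genes for the knockouts and 33 for PUHr) and for all genes tested (light bars). The tallest bar is that of members higher in HSP90β-KO, 60.0% beside 17.2% of all genes.

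Changed members numbered 5 higher and 2 lower in HSP90α-KO (all genes 5.32% and 5.01%), none higher and 1 lower in HSP90β-KO (1.83% and 2.65%), and 3 higher and 3 lower in PUHr (5.37% and 4.69%). In HSP90β-KO, the 18 rises ran from 0.09 for IKBKB to 0.85 for TRAF3 on the log2 scale. TLR1 entered the knockout test through its HSP90α-KO libraries alone, TLR4 the resistance test through PUHr alone and LTB through parental alone, so those genes entered the test only because a group held more of them. Without them 13 of 29 members were higher and 7 lower in HSP90α-KO, 18 of 29 higher and 1 lower in HSP90β-KO, and 7 of 31 higher and 14 lower in PUHr. Changed without them were 4 higher and 2 lower in HSP90α-KO, 1 lower in HSP90β-KO, and 2 higher and 2 lower in PUHr. The study calls its RNA-seq replicates independent, but the sources used here do not say for any group whether the libraries came from separate cultures, so the p-values measure the spread between these samples, which may be technical. PUHr replicate 2 differed from the other PUHr libraries by 3.26 and 4.28 times counting variance, where those 2 differed by 1.58 times, and without it 26 members passed, TLR1 (0.61, adjusted p = 0.0247) and IRAK2 (0.34, adjusted p = 0.0393) joining upwards and CHUK (-0.16, adjusted p = 0.00125) downwards.

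**Figure D2:**
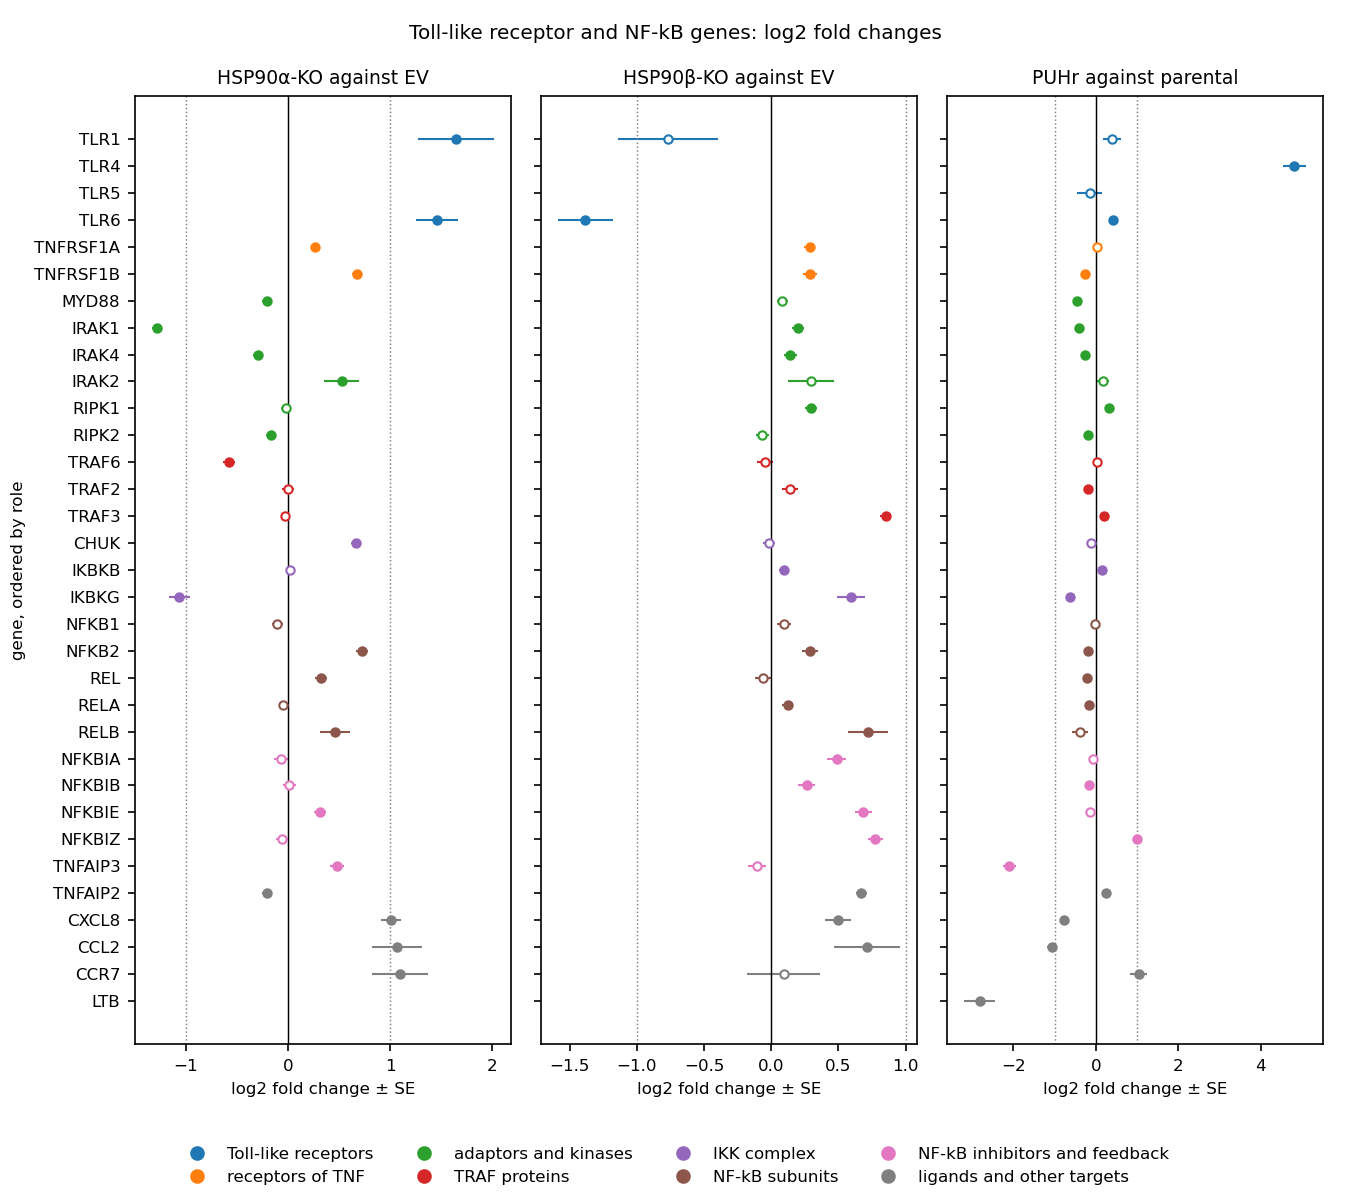
Log2 fold change ± standard error (horizontal axis, its range set for each panel) of every tested member, ordered and coloured by role, in the 3 comparisons. Filled points passed the adjusted p of 0.05 and open points did not, dotted lines mark -1 and 1, and the values of TLR1 in HSP90β-KO, TLR4 and LTB are fitted values beside a group with at most 3 reads per library.

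The Toll-like receptors gave few reads. TLR6, which senses bacterial lipopeptides together with TLR2 (chr4:38822897-38856817, minus strand, GRCh38), had 28, 29 and 38 reads in the EV libraries, 89, 62 and 88 in HSP90α-KO and 8, 12 and 14 in HSP90β-KO. Every HSP90α-KO library lay above every EV library and every HSP90β-KO library below, with no overlap. The log2 fold change was 1.46 ± 0.20 (SE, adjusted p = 9.26e-07, limma) in HSP90α-KO and -1.38 ± 0.20 (adjusted p = 4.63e-06) in HSP90β-KO. Set directly against each other, HSP90α-KO was higher than HSP90β-KO by 2.84 ± 0.20 (adjusted p = 2.84e-12). Around TLR6 on chromosome 4 the nearest genes had medians of 0.04 in HSP90α-KO and -0.04 in HSP90β-KO.

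TLR1, the neighbour of TLR6 and like it a partner of TLR2 (chr4:38790677-38856817, minus strand), had 2, 7 and 8 reads in EV, 23, 15 and 16 in HSP90α-KO and 1, 3 and 3 in HSP90β-KO. The HSP90α-KO libraries stood above both other groups, while EV and HSP90β-KO overlapped. Its log2 fold change in HSP90α-KO was 1.64 ± 0.37 (adjusted p = 5.18e-04, limma). TLR1 entered the test through HSP90α-KO alone, so it could only come out higher there than in EV or HSP90β-KO. In HSP90β-KO TLR1 was at or under 3 reads in every library and did not pass against EV (adjusted p = 0.113, limma). HSP90α-KO was higher than HSP90β-KO by a fitted log2 value of 2.42 (95% interval 1.69 to 3.14, adjusted p = 3.19e-06). Both genes are annotated from the same start site, and 5.30% of the 76-base windows of TLR1 transcripts also occur in TLR6, so a small share of reads could fall to either.

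TLR4, the receptor of bacterial lipopolysaccharide (chr9:117704175-117724735, plus strand), had 1, 2 and 0 reads in the parental libraries and 90, 75 and 76 in PUHr. PUHr was at least 25.8-fold higher, counted against 3 reads per parental library (adjusted p = 2.66e-09, limma). TLR4 entered the test through PUHr alone, so it could only come out higher in PUHr. The median of its neighbours was 0.01. In the knockout table TLR4 was too low to be tested, with at most 5 reads in any library. In the same PUHr libraries TLR6 rose by a log2 fold change of 0.42 ± 0.10 (adjusted p = 0.00282), beside a median of 0.36 among its neighbours, and lost the call when genes of low count were kept in the fit (adjusted p = 0.0900). TLR1 was at 1.49 ± 0.39 CPM in PUHr against 1.09 ± 0.11 in parental and TLR5 at 0.496 ± 0.187 against 0.540 ± 0.102, neither passing.

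The remaining Toll-like receptors were below the test. TLR2 had 2, 1 and 3 reads in parental and 0 in each PUHr library, TLR10 had at most 4 reads in a library, and TLR3 had 0 reads in all 6 libraries. A count of 0 allows up to 3 reads per library. TLR9 also had 0 reads, but 97.4% of its 76-base windows are shared with an overlapping readthrough gene, so that count says nothing on TLR9. TLR2, TLR3, TLR5, TLR9, TLR10, TNF and LTB were not analysed in the knockout table.

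**Figure D3:**
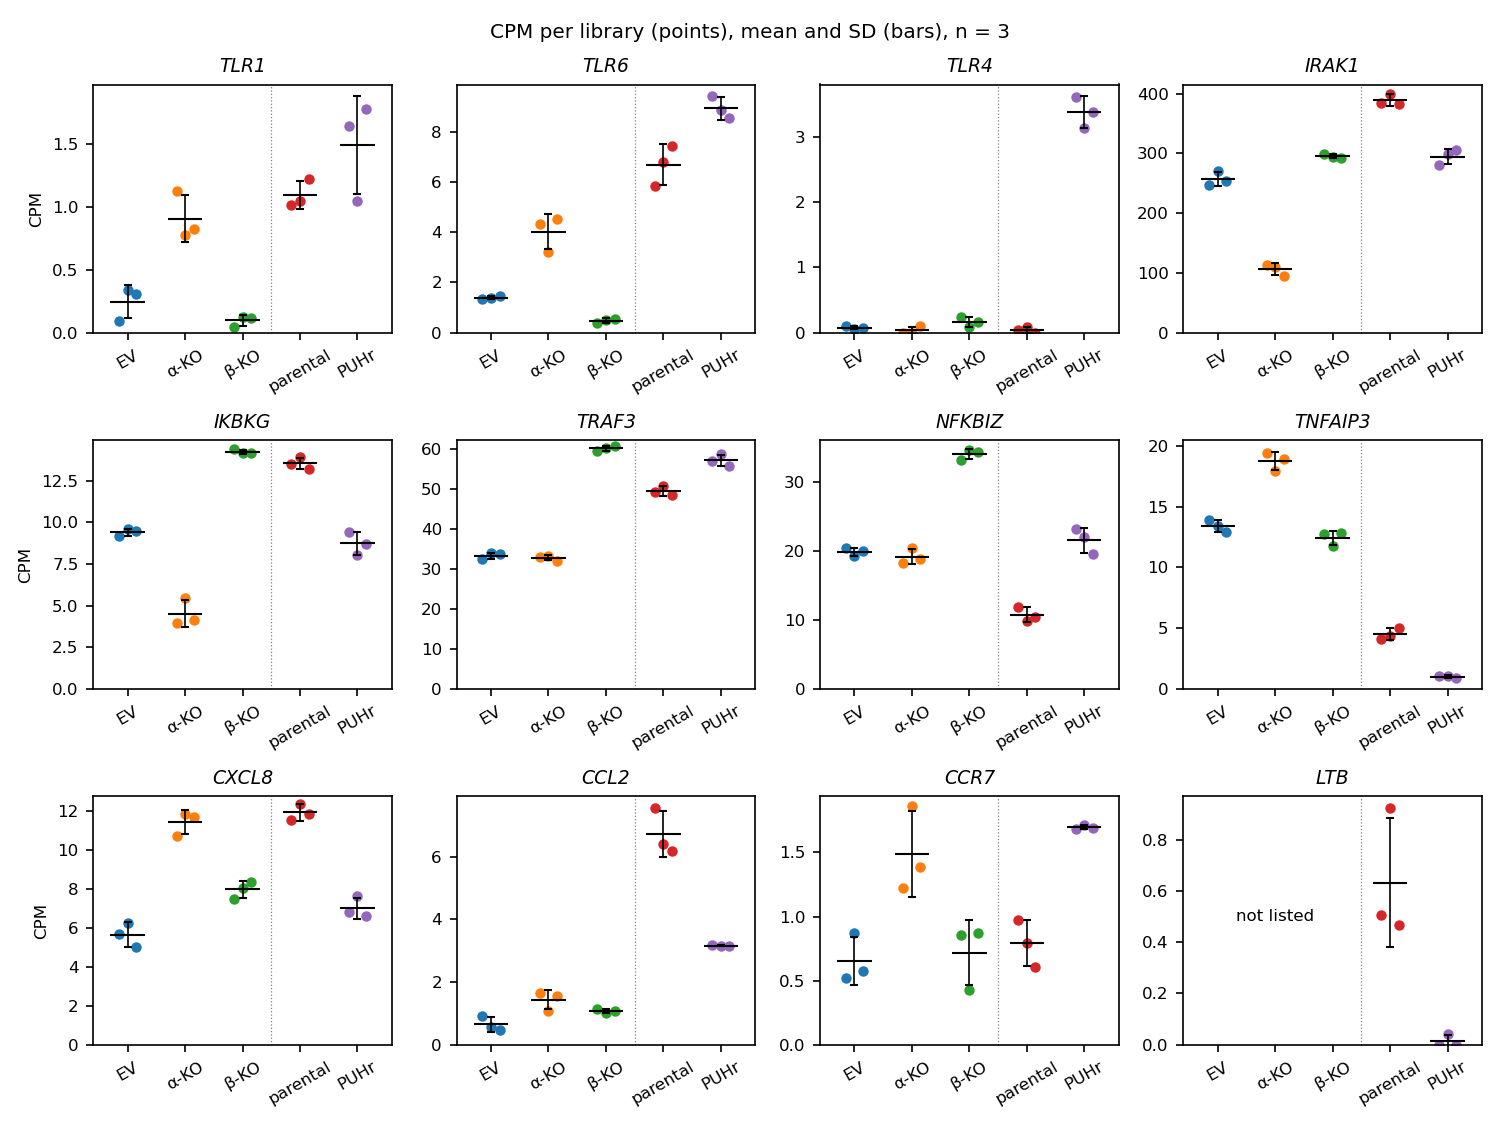
CPM on a linear vertical axis starting at 0 for 12 members in EV, HSP90α-KO, HSP90β-KO, parental and PUHr, with 1 point per library, a line at the mean and bars of 1 SD (n = 3 per group). The dotted line separates the tables, which were normalized apart. TLR6 goes up in HSP90α-KO and down in HSP90β-KO, TLR4 is near 0 outside PUHr, and TNFAIP3 is lowest in PUHr.

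Both receptors of TNF were tested in both tables. TNFRSF1A, the receptor found on most cells, was at 65.6 ± 2.44 CPM in EV, 79.0 ± 4.14 in HSP90α-KO and 80.1 ± 1.75 in HSP90β-KO, log2 fold changes of 0.27 ± 0.04 and 0.29 ± 0.04 (adjusted p = 5.62e-06 and 4.22e-06, limma). No difference between the knockouts passed for TNFRSF1A (-0.02, 95% interval -0.10 to 0.06). TNFRSF1B, the receptor of leukocytes, was at 55.0 ± 5.27 CPM in EV, 87.8 ± 3.51 in HSP90α-KO and 67.0 ± 0.17 in HSP90β-KO, rises of 0.68 ± 0.05 and 0.29 ± 0.05, and the direct difference of 0.39 ± 0.05 passed (adjusted p = 1.72e-07). PUHr held less TNFRSF1B than parental, 107 ± 1.49 against 129 ± 2.05 CPM (log2 fold change -0.27 ± 0.03, adjusted p = 1.23e-06), where the median of its neighbours was -0.44. TNFRSF1A did not pass there (0.03 ± 0.04).

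Among adaptors and kinases the largest difference was that of IRAK1, the kinase recruited to MYD88 (chrX:154010506-154019902, minus strand). It was at 247, 271 and 254 CPM in the EV libraries, at 113, 110 and 94.9 in HSP90α-KO and at 299, 295 and 293 in HSP90β-KO, with no overlap between any pair of groups. The log2 fold change was -1.28 ± 0.05 in HSP90α-KO (adjusted p = 1.47e-18, limma) and 0.20 ± 0.05 in HSP90β-KO (adjusted p = 0.00112, and 0.0764 without the variance trend), and HSP90α-KO lay below HSP90β-KO by 1.48 on that scale (-1.48 ± 0.05, adjusted p = 3.72e-20). For the 40 tested genes nearest to IRAK1 the median was -0.98 in HSP90α-KO and 0.14 in HSP90β-KO, so the stretch of chromosome X around it was lower in HSP90α-KO as well. IRAK1 itself lay 0.30 below that median.

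The other genes of this step moved less. MYD88, the adaptor of most Toll-like receptors, fell by 0.21 ± 0.04 in HSP90α-KO (49.3 ± 1.31 to 42.7 ± 0.60 CPM, adjusted p = 2.14e-04, limma). In PUHr it was at 38.0 ± 1.71 CPM against 52.1 ± 0.98 in parental (-0.46 ± 0.04, adjusted p = 4.49e-07), while in HSP90β-KO it did not pass (0.08 ± 0.04). IRAK4, the first kinase of the receptor complex, was at 50.3 ± 0.98 CPM in EV, 41.0 ± 1.26 in HSP90α-KO (-0.29 ± 0.05) and 55.6 ± 3.65 in HSP90β-KO (0.14 ± 0.05), a direct difference of -0.43 ± 0.05 (adjusted p = 1.06e-08). Its rise in HSP90β-KO (adjusted p = 0.0226) was lost when EV replicate 1, EV replicate 2, HSP90β-KO replicate 2 or HSP90β-KO replicate 3 was left out (adjusted p = 0.0616, 0.0575, 0.189 and 0.0648). IRAK2, a further kinase of the family, rose by 0.53 ± 0.17 in HSP90α-KO (1.77 ± 0.08 to 2.60 ± 0.36 CPM, adjusted p = 0.0116), but not without HSP90α-KO replicate 2 (adjusted p = 0.0666).

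MYD88, IRAK1 and IRAK4 were thus lower in HSP90α-KO than in EV and lower in PUHr than in parental. IRAK1 in PUHr was at 280, 298 and 305 CPM against 384, 400 and 382 in parental (-0.40 ± 0.03, adjusted p = 5.77e-08, limma), and IRAK4 at 32.4 ± 2.30 against 39.2 ± 0.40 (-0.27 ± 0.05, adjusted p = 4.30e-04, and 0.0553 without the filter on low counts). RIPK1, the kinase of the TNF receptor complex, went the other way in PUHr, 73.9 ± 3.71 against 59.2 ± 1.71 CPM (0.32 ± 0.04, adjusted p = 1.21e-05), beside a neighbour median of 0.48. RIPK1 also rose in HSP90β-KO (40.4 ± 0.66 to 49.7 ± 2.10 CPM, 0.30 ± 0.05, adjusted p = 1.12e-05) with neighbours at -0.04. RIPK2, the kinase below the NOD receptors, was lower by small amounts in HSP90α-KO (-0.17 ± 0.05, neighbours -0.29) and in PUHr (-0.19 ± 0.06).

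TRAF proteins are the ubiquitin ligases and scaffolds below these receptors. TRAF3, which holds back the non-canonical NF-kB route (chr14:102777449-102911500, plus strand), was at 32.5, 33.9 and 33.6 CPM in EV, 33.0, 33.2 and 32.0 in HSP90α-KO and 59.6, 60.2 and 60.6 in HSP90β-KO. The HSP90β-KO libraries stood apart and EV and HSP90α-KO overlapped. Its rise in HSP90β-KO was 0.85 ± 0.04 (adjusted p = 2.05e-14, limma), the largest among the members in that comparison, and the neighbours of TRAF3 rose with a median of 0.57. TNFAIP2, a TNF-induced gene on the same arm of chromosome 14 (chr14:103121476-103137439, plus strand), had 85.1, 95.9 and 88.7 CPM in EV, 81.4, 78.7 and 73.6 in HSP90α-KO and 143, 144 and 141 in HSP90β-KO. It rose by 0.67 ± 0.04 in HSP90β-KO (adjusted p = 1.13e-12) beside a neighbour median of 0.60, and fell by 0.21 ± 0.04 in HSP90α-KO (adjusted p = 1.89e-04) where its neighbours were at -0.02. Both genes were also higher in PUHr than in parental without overlap, TRAF3 at 57.2 ± 1.40 against 49.5 ± 1.20 CPM (0.21 ± 0.04, adjusted p = 3.05e-04, neighbours 0.21) and TNFAIP2 at 53.1 ± 1.41 against 45.1 ± 1.36 CPM (0.23 ± 0.04, adjusted p = 1.69e-04, neighbours 0.16).

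TRAF6, the ligase below MYD88, fell by 0.58 ± 0.06 in HSP90α-KO (30.5 ± 1.08 to 20.4 ± 0.43 CPM, adjusted p = 3.02e-09, limma) while its neighbours were at 0.21. It did not pass in HSP90β-KO (-0.05 ± 0.06) or in PUHr (0.03 ± 0.05). TRAF2, the partner of the TNF receptors, passed only in PUHr among the comparisons with a control (52.4 ± 2.00 to 46.0 ± 2.19 CPM, -0.19 ± 0.04, adjusted p = 0.00239), a call lost without the filter on low counts (adjusted p = 0.0957). In HSP90β-KO it missed the threshold (0.14 ± 0.06, adjusted p = 0.0693) and passed without EV replicate 2 (adjusted p = 0.0204), without HSP90α-KO replicate 1 (adjusted p = 0.0453), which shares the fit, or when only the 6 libraries compared were fitted (adjusted p = 0.041). TRAF1 was too low to be tested in either table, with at most 12 reads in a library.

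The IKK complex has the kinases CHUK (IKKα) and IKBKB (IKKβ) and the regulatory subunit IKBKG (NEMO). IKBKG (chrX:154541199-154565046, plus strand) was at 9.18, 9.59 and 9.49 CPM in EV, 3.95, 5.44 and 4.16 in HSP90α-KO and 14.4, 14.2 and 14.2 in HSP90β-KO. The groups did not overlap, HSP90α-KO being lowest and HSP90β-KO highest. The log2 fold changes against EV were -1.06 ± 0.10 (adjusted p = 1.18e-09, limma) and 0.59 ± 0.10 (adjusted p = 3.57e-05), and the direct difference was -1.65 ± 0.10 (adjusted p = 1.02e-13). Like IRAK1 it sits on distal chromosome X, where its 31 nearest tested genes had medians of -0.89 in HSP90α-KO and 0.14 in HSP90β-KO. In PUHr IKBKG was at 8.74 ± 0.68 CPM against 13.6 ± 0.35 (-0.63 ± 0.08, adjusted p = 8.28e-06), neighbours at -0.27. Since 49.2% of its 76-base windows also occur in the pseudogene IKBKGP1, the reads of IKBKG are uncertain.

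CHUK rose in HSP90α-KO from 42.5 ± 1.51 to 67.7 ± 3.65 CPM (0.67 ± 0.05, adjusted p = 1.98e-12, limma), where its neighbours on chromosome 10 had a median of 0.54. It did not pass in HSP90β-KO (-0.02 ± 0.05) and missed the threshold in PUHr (-0.11 ± 0.05, adjusted p = 0.0523), where it passed under 6 of 16 alternatives (adjusted p between 0.00125 and 0.0495). IKBKB differed little between the groups, with 108 ± 1.23 CPM in EV, 110 ± 4.59 in HSP90α-KO and 115 ± 2.22 in HSP90β-KO. Its call in HSP90β-KO (0.09 ± 0.04, adjusted p = 0.0472) was lost when any of the 3 EV or any of the 3 HSP90β-KO libraries was left out (adjusted p between 0.0528 and 0.164). In PUHr IKBKB rose by 0.15 ± 0.03 (107 ± 2.90 to 118 ± 3.17 CPM, adjusted p = 0.00143, and 0.0547 without the filter on low counts).

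Of the 5 NF-kB subunits, 3 were higher in each knockout (all genes 27.5% in HSP90α-KO and 17.2% in HSP90β-KO) and 3 were lower in PUHr (all genes 25.8%), with none changed by more than 1. NFKB2, the precursor of p52, was at 22.7, 23.9 and 22.8 CPM in EV, 40.7, 40.6 and 34.4 in HSP90α-KO and 29.1, 27.5 and 28.2 in HSP90β-KO. Both knockouts lay above EV without overlap, by 0.73 ± 0.06 and 0.29 ± 0.06 (adjusted p = 5.56e-11 and 3.90e-04, limma). The neighbours of NFKB2 on chromosome 10 had a median of 0.68 in HSP90α-KO and 0.07 in HSP90β-KO. RELB, the partner of p52, was at 2.52, 3.13 and 2.40 CPM in EV, 4.34, 3.11 and 3.75 in HSP90α-KO and 4.43, 4.10 and 4.87 in HSP90β-KO. It rose by 0.72 ± 0.15 in HSP90β-KO (adjusted p = 3.28e-04). In HSP90α-KO its rise of 0.46 ± 0.15 (adjusted p = 0.0103) was lost without EV replicate 3 (adjusted p = 0.0551) or without HSP90α-KO replicate 1 (adjusted p = 0.0718).

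REL, the subunit c-Rel of lymphoid cells, rose in HSP90α-KO (17.8 ± 0.47 to 22.4 ± 0.42 CPM, 0.33 ± 0.06, adjusted p = 4.79e-05, limma) and did not pass in HSP90β-KO (-0.06 ± 0.06). Since 50.3% of its 76-base windows fall in a further annotated gene at the same place, REL reads are uncertain. RELA, or p65, was at 66.9 ± 1.72 CPM in EV, 64.9 ± 3.50 in HSP90α-KO, which did not pass, and 72.7 ± 1.35 in HSP90β-KO. The latter rise of 0.12 ± 0.04 (adjusted p = 0.0254) was lost without EV replicate 1 or 3 and without HSP90β-KO replicate 1 or 3 (adjusted p between 0.0779 and 0.0940). NFKB1, the precursor of p50, did not pass against a control in any comparison (28.5 ± 1.31 CPM in EV, 26.6 ± 0.59 in HSP90α-KO, 30.4 ± 0.49 in HSP90β-KO, 44.3 ± 1.04 in parental and 43.7 ± 1.37 in PUHr). Left without EV replicate 1, it passed in HSP90α-KO (adjusted p = 0.0435).

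In PUHr the falls were 0.20 ± 0.07 for NFKB2, 0.20 ± 0.06 for REL and 0.18 ± 0.04 for RELA (adjusted p = 0.0397, 0.0136 and 0.00154, limma). NFKB2 lost its call without parental replicate 1 or 3 or PUHr replicate 3 (adjusted p = 0.146, 0.102 and 0.175), and REL without parental replicate 3 or PUHr replicate 3 (adjusted p = 0.0646 and 0.0585). Without the filter on low counts all 3 falls lost their call (adjusted p = 0.291, 0.0839 and 0.114 in that order). RELB was at 1.55 ± 0.34 CPM against 2.01 ± 0.09 in parental and did not pass (adjusted p = 0.106).

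The inhibitors and feedback genes rose in HSP90β-KO in 4 of 5 cases, beside 17.2% of all genes. NFKBIZ encodes the nuclear IκB family protein IκBζ (chr3:101827991-101861022, plus strand). It was at 20.4, 19.3 and 19.97 CPM in EV, 18.3, 20.4 and 18.8 in HSP90α-KO and 33.3, 34.6 and 34.4 in HSP90β-KO. HSP90β-KO stood clear of both other groups, with a rise of 0.77 ± 0.06 (adjusted p = 2.14e-11, limma) beside a neighbour median of 0.34. In PUHr the same gene was at 23.1, 22.0 and 19.6 CPM against 11.9, 9.82 and 10.4 in parental, again without overlap. That rise was 1.00 ± 0.08 (adjusted p = 1.13e-07) with neighbours at 0.04.

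NFKBIE, or IκBε, was at 14.9, 15.1 and 14.5 CPM in EV, 18.5, 19.5 and 17.6 in HSP90α-KO and 25.03, 23.8 and 23.1 in HSP90β-KO, a stepwise order with no overlap. The rises were 0.31 ± 0.06 and 0.69 ± 0.06 (adjusted p = 1.21e-04 and 1.19e-09, limma), and the knockouts differed by -0.37 ± 0.06 (adjusted p = 1.10e-05). NFKBIA, or IκBα, was at 13.2, 14.0 and 13.2 CPM in EV, 12.8, 13.3 and 12.4 in HSP90α-KO and 17.3, 18.7 and 20.7 in HSP90β-KO. It rose by 0.49 ± 0.07 in HSP90β-KO (adjusted p = 5.78e-06) and passed neither in HSP90α-KO (-0.06 ± 0.07) nor in PUHr (13.2 ± 0.69 against 13.8 ± 0.53 CPM). NFKBIB, or IκBβ, rose by 0.26 ± 0.07 in HSP90β-KO (adjusted p = 0.00239). Its fall of 0.18 ± 0.06 in PUHr (adjusted p = 0.0184) was lost without parental replicate 1 or 2 or PUHr replicate 1 or 3 (adjusted p between 0.0616 and 0.0887) and without the filter on low counts (adjusted p = 0.312).

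TNFAIP3, whose product A20 removes ubiquitin from RIPK1 and ends the signal (chr6:137867214-137883314, plus strand), differed from these genes. It was at 13.9, 13.4 and 12.9 CPM in EV, 19.4, 17.9 and 18.9 in HSP90α-KO and 12.7, 11.8 and 12.8 in HSP90β-KO. The rise in HSP90α-KO was 0.48 ± 0.07 (adjusted p = 1.41e-06, limma), and HSP90β-KO did not pass (-0.11 ± 0.07), a direct difference of 0.59 ± 0.07 (adjusted p = 4.10e-08). In PUHr TNFAIP3 had 26, 25 and 19 reads against 96, 104 and 107 in parental, 1.04, 1.05 and 0.845 CPM against 4.06, 4.36 and 5.02. It fell by 2.10 ± 0.16 (adjusted p = 5.42e-08), beside neighbours at 0.14. NFKBIZ and TNFAIP3 thus moved in opposite directions in PUHr, while NFKBIA did not pass. Their promoters were printed with these directions known.

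Among ligands and other targets, CXCL8, the neutrophil chemokine IL-8 (chr4:73740519-73743716, plus strand), was at 5.66, 6.27 and 4.99 CPM in EV, 10.7, 11.9 and 11.7 in HSP90α-KO and 7.49, 8.06 and 8.35 in HSP90β-KO. Both knockouts were above EV without overlap, by 1.01 ± 0.10 and 0.50 ± 0.10 (adjusted p = 1.29e-09 and 2.01e-04, limma), and HSP90α-KO was above HSP90β-KO (0.52 ± 0.10, adjusted p = 5.06e-05). In PUHr CXCL8 was at 6.83, 7.61 and 6.58 CPM against 11.5, 12.4 and 11.9 in parental (-0.76 ± 0.08, adjusted p = 2.43e-06).

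CCL2, the monocyte chemokine MCP-1 (chr17:34255274-34257208, plus strand), had 19, 12 and 12 reads in EV, 34, 21 and 30 in HSP90α-KO and 24, 24 and 27 in HSP90β-KO. The rises were 1.07 ± 0.25 (adjusted p = 6.58e-04, limma) and 0.71 ± 0.25 (adjusted p = 0.0271), and the latter was lost without EV replicate 2 or 3 or HSP90β-KO replicate 1 or 3 (adjusted p between 0.0624 and 0.150). In PUHr it had 79, 75 and 71 reads against 179, 153 and 132 in parental (-1.07 ± 0.11, adjusted p = 1.97e-06). CXCL8 and CCL2 were thus higher than their control in both knockouts and lower than their control in PUHr.

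CCR7, the homing receptor of lymphocytes and dendritic cells (chr17:40553769-40565472, minus strand), had 11, 18 and 15 reads in EV, 25, 36 and 27 in HSP90α-KO and 18, 10 and 22 in HSP90β-KO. It rose by 1.09 ± 0.27 in HSP90α-KO (adjusted p = 0.00143, limma), where its libraries cleared both other groups, and did not pass in HSP90β-KO (0.09 ± 0.27). The direct difference was 1.00 ± 0.27 (adjusted p = 0.00268). In PUHr CCR7 had 42, 41 and 38 reads against 23, 19 and 13 in parental (1.04 ± 0.21, adjusted p = 6.82e-04). LTB, lymphotoxin beta, a membrane-bound ligand of the TNF family (chr6:31580525-31582522, minus strand), had 12, 22 and 10 reads in parental and 0, 1 and 0 in PUHr. PUHr was at least 5.01-fold lower, counted against 3 reads per PUHr library (adjusted p = 1.68e-05). LTB entered the test through parental alone, so it could only come out lower in PUHr. TNF had at most 2 reads in a library of the resistance table, and IL1B at most 7 in any library of either, so neither was tested.

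Set directly against each other, HSP90α-KO was higher than HSP90β-KO in 9 of 30 members (30%, against 30.1% of all genes) and lower in 15 (50%, against 29.8%), so the share higher was near that of all genes, of which 59.9% passed in either direction. Changed were TLR1, TLR6 and CCR7 upwards and IRAK1 and IKBKG downwards (all genes 7.14% and 5.57%, or 12.7% in all), a count of 5 of 30 that lies near the share of all genes. Without TLR1, which was tested through HSP90α-KO alone, 8 of 29 were higher and 2 changed upwards. Both knockouts were compared with the same EV libraries, so the EV comparisons are not independent of each other and this contrast is the test of the difference. All 5 inhibitors and feedback genes passed it, TNFAIP3 higher in HSP90α-KO and NFKBIA, NFKBIB, NFKBIE and NFKBIZ lower, by 0.25 to 0.83 on the log2 scale (-0.25 for NFKBIB, -0.83 for NFKBIZ). The 3 tested TRAF genes were also lower in HSP90α-KO, though TRAF2 (-0.14 ± 0.06, adjusted p = 0.0425, limma) lost its call without HSP90α-KO replicate 2 or 3, HSP90β-KO replicate 2 or 3 or EV replicate 3 (adjusted p between 0.0526 and 0.189).

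Several members moved with their stretch of chromosome. Beside the gene's own value, the median log2 fold change of up to 20 tested genes on either side lay beyond 0.25 in the same direction for 5 of the 21 members that passed in HSP90α-KO (IRAK1, IKBKG, CHUK, NFKB2 and RIPK2). In HSP90β-KO it did so for 3 of 19 (TRAF3, TNFAIP2 and NFKBIZ), and in PUHr for 4 of 23 (TLR6, RIPK1, TNFRSF1B and IKBKG). Over all genes that passed, the shares with such neighbours were 7.2%, 9.53% and 4.74% in that order, with no test made of the difference. Relative to its neighbours, CHUK was higher by 0.13, NFKB2 by 0.05 and TNFAIP2 by 0.07, while TRAF3 was higher by 0.28 and NFKBIZ by 0.44. HSP90AA1 lies on the same arm of chromosome 14 as TRAF3 and TNFAIP2, and in HSP90β-KO it rose by 0.78 ± 0.03 with neighbours at 0.50. By SNP array the paper saw no alteration of the HSP90AA1 locus in HSP90β-KO cells. It also reports more HSP90α after knockdown of HSP90β. In PUHr the paper reports a copy number gain that holds HSP90AA1. In PUHr TRAF3 rose by 0.21 beside a neighbour median of 0.21, and TNFAIP2 by 0.23 beside 0.16. These medians lie under 0.25, so TRAF3 and TNFAIP2 are not counted above although their neighbours were higher as well. Whether the reported gain holds TRAF3 and TNFAIP2 was not tested. The part of these stretches in the members' values was not tested. The Toll-like receptors in the knockouts, and TLR4, TNFAIP3, NFKBIZ, CCL2, CCR7 and LTB in PUHr, had neighbour medians between -0.08 and 0.14.

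**Figure D4:**
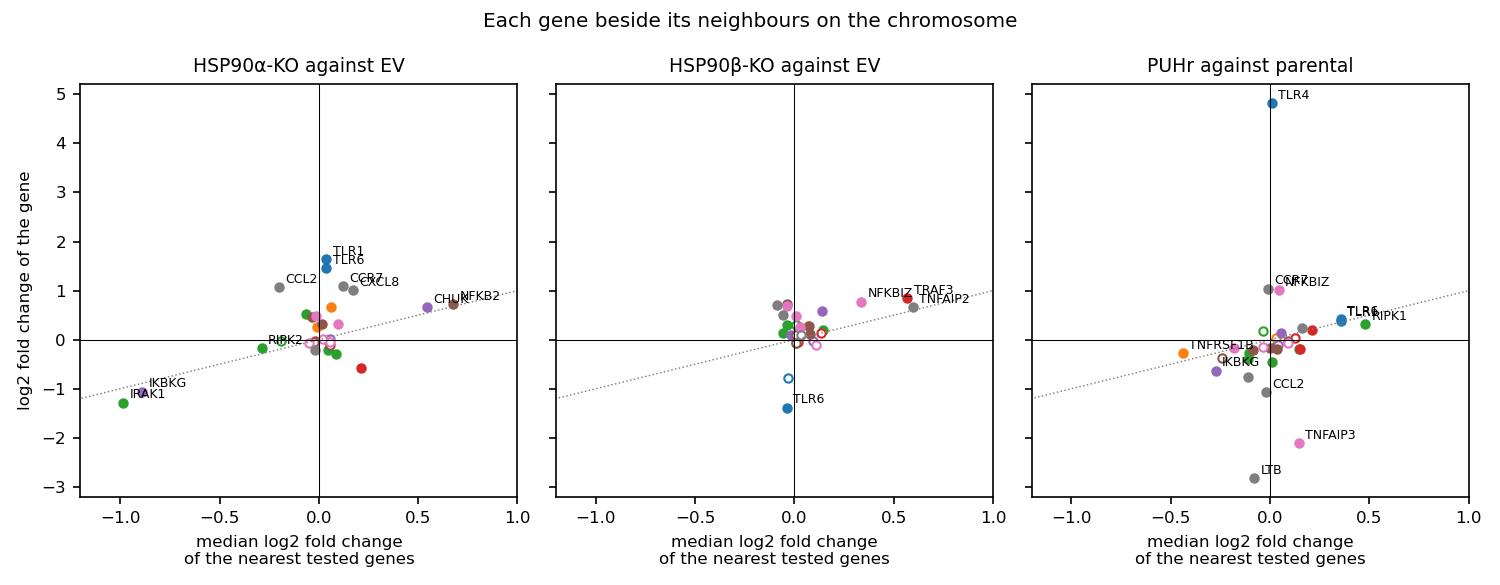
Log2 fold change of each tested member (vertical axis) against the median log2 fold change of up to 20 tested genes on either side of it (horizontal axis), in the 3 comparisons, coloured by role, with filled points for an adjusted p under 0.05. The dotted line marks equal values, and IRAK1 and IKBKG in HSP90α-KO lie near it at neighbour medians of -0.98 and -0.89, while TLR4 and TNFAIP3 in PUHr lie far from it.

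Other genes of the pathway were read from 2 lists, also chosen with earlier results of these data known. Of 54 further receptors, adaptors, kinases and regulators, the knockout table allowed a test of 47 and the resistance table of 44. In HSP90α-KO 17 were higher and 12 lower (36.2% and 25.5%, against 27.5% and 26.6% of all genes), in HSP90β-KO 10 higher and 7 lower (21.3% and 14.9%, against 17.2% and 17.2%), and in PUHr 6 higher and 14 lower (13.6% and 31.8%, against 25.6% and 25.8%), with medians of 0.02, 0.04 and -0.04. The shares in HSP90β-KO and the share lower in HSP90α-KO were near those of all genes. Changed in HSP90α-KO were MALT1, a protease that acts above the IKK complex in lymphocytes (131 ± 3.05 to 48.6 ± 0.49 CPM, -1.43 ± 0.03, adjusted p = 4.07e-22, limma), CD40, a receptor of B cells and antigen-presenting cells (1.80 ± 0.36), and TNFRSF11A, the receptor RANK. TNFRSF11A had 0, 1 and 0 reads in EV and was at least 5.63-fold higher in HSP90α-KO and at least 2.44-fold higher in HSP90β-KO, where it alone was changed. CD180, a Toll-like receptor homologue, had 26, 41 and 26 reads in parental and 2 in each PUHr library. Its fitted log2 fold change was -3.05, and it was the changed gene of this list in PUHr. CD40 and TNFRSF11A entered the knockout test through HSP90α-KO alone and CD180 the resistance test through parental alone, so these genes were tested only because that group held more of them. Without them 15 of 45 were higher and 12 lower in HSP90α-KO, 9 and 7 in HSP90β-KO, and 6 of 43 higher and 13 lower in PUHr, and MALT1 was the only gene of the list still changed in these 3 comparisons.

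Of 36 further NF-kB target genes, 21 and 18 were tested. In HSP90α-KO 10 were higher and 2 lower (47.6% and 9.52%, against 27.5% and 26.6% of all genes), in HSP90β-KO 8 higher and 1 lower (38.1% and 4.76%, against 17.2% and 17.2%), and in PUHr 5 higher and 8 lower (27.8% and 44.4%, against 25.6% and 25.8%), with medians of 0.17, 0.10 and -0.30. The share higher in PUHr was near that of all genes. CD69, an early activation marker, was at 29.5 ± 2.38 CPM in EV, 98.3 ± 6.15 in HSP90α-KO and 70.2 ± 1.99 in HSP90β-KO (1.74 ± 0.05 and 1.25 ± 0.05, limma). IER3, an early response gene, rose in both as well (1.91 ± 0.26 and 1.30 ± 0.26). IL32 went down in HSP90α-KO (-1.12 ± 0.32, adjusted p = 0.00447) and up in HSP90β-KO (1.40 ± 0.32, adjusted p = 0.00104), a direct difference of -2.52 ± 0.32 (adjusted p = 1.45e-07). BIRC3, an inhibitor of apoptosis, rose in HSP90β-KO (0.590 ± 0.194 to 2.22 ± 0.39 CPM, 1.79 ± 0.26) and fell in PUHr (-1.55 ± 0.27). PLAU, IL1A and CSF2 were the other genes of this list changed in HSP90α-KO, all upwards, and IL1A and CSF2 entered that test through HSP90α-KO alone. Without those 2 genes 8 of 19 were higher and 2 lower in HSP90α-KO, and 8 higher and 1 lower in HSP90β-KO.

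In PUHr IL6, the cytokine of the acute phase, was at 8.26 ± 0.71 CPM against 1.19 ± 0.12 in parental (2.71 ± 0.14, adjusted p = 4.29e-10, limma). ICAM1, an adhesion molecule of leukocytes, was at 13.8 ± 0.11 CPM against 37.1 ± 0.98 (-1.42 ± 0.05, adjusted p = 9.74e-12). CSF2, the growth factor GM-CSF, had 12, 12 and 16 reads in parental and 0, 1 and 2 in PUHr, at least 4.64-fold lower, and IL23A was lower as well (-1.04 ± 0.29). CSF2 entered this test through parental alone, and without it 5 of 17 were higher and 7 lower.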

How the data were processed

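Per the submitters' notes and the paper's methods, trimmed reads were mapped to GRCh38 by RNA STAR, featureCounts gave counts for each gene, and edgeR scaled these. Versions are not given in the sources used here. The authors deposited log2 values, CPM with a prior count added. Less the floor, each value was a whole multiple of 1 read (largest deviation 0.0014 reads), so reads and CPM were recovered. The parental columns spell DMSO as DSMO. Entries without an identifier held at most 0.036% of reads.

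Members and lists were chosen with earlier results of these data known. Genes reaching a log2 CPM of -1 in 3 or more libraries entered limma 3.58.1 (R 4.3.3, lmFit, contrasts, eBayes with trend), 1 fit per table, adjusted by Benjamini-Hochberg over all tested genes, and the code was tested on simulated data. Full values are given for changed members, others by group. From the 2 further lists counts and changed genes are given, at most 6 a list and comparison. A group with at most 3 reads in every library was at the floor. Folds given as at least a value set the other group's mean against 3 reads per library. They allow for counting error of the low group only. For TLR1 in HSP90β-KO and CD180 in PUHr, most or all libraries held 2 or 3 reads. Their level may lie above 3 reads, so fitted values are given there. Neighbours were up to 20 tested genes on each side in GENCODE release 44 (GRCh38). Replicates differed by 1.15 to 4.28 times counting variance (chi-square per degree of freedom), so none was a copy. Alternatives were other filters, pseudocounts, scalings and models, a replicate block and leaving out each library. Monoclonal origin and read length (76 bases) come from the labels.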

Additional observations from a re-analysis of the deposited data

Results flagged for a closer look

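The effects of the 2 knockouts on the same gene differed for 3 members that were changed in the direct contrast and passed with opposite signs against EV, although the rise of IRAK1 in HSP90β-KO (0.20) lost its call without the variance trend (adjusted p = 0.0764, limma). TLR6 was higher in HSP90α-KO than in HSP90β-KO by a log2 value of 2.84 (adjusted p = 2.84e-12, limma), up in 3 of 3 HSP90α-KO libraries and down in 3 of 3 HSP90β-KO libraries. IRAK1 was lower in HSP90α-KO (-1.48, adjusted p = 3.72e-20), and so was IKBKG (-1.65, adjusted p = 1.02e-13). In that contrast the neighbours of TLR6 had a median of 0.01, those of IRAK1 -1.12 and those of IKBKG -0.97, and IKBKG reads may be shared with a pseudogene.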

How the results depend on the processing

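No member reversed its direction with a call under any alternative. Counts of members that passed stayed within 1.5 times the reported value throughout, and over the fits leaving out a library they ranged from 20 to 22 in HSP90α-KO against EV, 15 to 20 in HSP90β-KO against EV, 23 to 25 in HSP90α-KO against HSP90β-KO and 20 to 26 in PUHr against parental. Changed members depended on how low counts were treated. Where a mean log2 CPM of at least 1 was asked for, they numbered 3, 0, 2 and 3 in that order (reported values 7, 1, 5 and 6), with a pseudocount of 1 CPM 2, 0, 3 and 2, and with a pseudocount of 5 CPM 1, 0, 2 and 0, since pseudocounts shrink the folds of low genes by construction. Without any filter HSP90β-KO had 2. Leaving out a library gave 5 to 7, 1 to 2, 4 to 5 and 4 to 6, and the 2 in HSP90β-KO came without EV replicate 1, where TLR1 passed (adjusted p = 0.0198, limma). Without any filter 8 PUHr calls were lost (TLR6, IRAK4, TRAF2, IKBKB, NFKB2, REL, RELA and NFKBIB), and the cause was not tested. Without the variance trend IRAK1, IRAK4, IKBKB, RELA and CCL2 were lost in HSP90β-KO, TRAF2 in the direct contrast, and NFKB2 and NFKBIB in PUHr. Under median centring IRAK4, IKBKB and RELA were lost in HSP90β-KO, leaving 15 higher and 1 lower, and TRAF2 was lost in the direct contrast. Calls in PUHr were gained by CHUK under 6 and by NFKBIE under 4 of 16 alternatives.

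Replicate numbers did not pair the libraries, as deviations of libraries with the same number correlated between -0.05 and 0.04. With a replicate block 21, 18, 23 and 24 members passed and 7, 1, 5 and 6 were changed. Depth limits TLR1, TLR2, TLR4, TLR10, TNF, LTB and IL1B, which had few reads in at least 1 group.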

Other observations

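EV and parental, the controls of the 2 tables, are both K562 but differed in several members. The tables were normalized separately and no test was made between them. Of 30 members tested in both, 6 were more than 2-fold higher and 1 more than 2-fold lower in parental, beside 6.69% and 8% of the 15735 genes tested in both. CCL2 was at 0.646 ± 0.231 CPM in EV and 6.73 ± 0.74 in parental (SD, n = 3), a ratio of 10.4. TLR6 was at 1.39 ± 0.06 and 6.70 ± 0.82 CPM, TLR1 at 0.246 ± 0.132 and 1.09 ± 0.11, TNFRSF1B at 55.0 ± 5.27 and 129 ± 2.05, CXCL8 at 5.64 ± 0.64 and 11.9 ± 0.42, and IRAK2 at 1.77 ± 0.08 and 3.81 ± 0.34. TNFAIP3 was the gene lower in parental, 4.48 ± 0.49 against 13.4 ± 0.50 CPM. NFKBIA (13.4 ± 0.47 and 13.8 ± 0.53 CPM), REL (17.8 ± 0.47 and 17.9 ± 0.80) and IKBKB (108 ± 1.23 and 107 ± 2.90) were nearly level.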
